A study of Mus musculus with 30 samples.

Results

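Cathepsin G and the mast cell proteases were measured here in subcutaneous mouse tumours that lacked B2m, lacked Jak1 or were wild type. The set holds 9 genes: Ctsg (cathepsin G), Mcpt8, Mcpt4 and Cma1 (chymase-family proteases), Cpa3 (mast cell carboxypeptidase), Tpsb2 and Tpsab1 (tryptases), Kit (the receptor for stem cell factor) and Ms4a2 (the beta chain of the IgE receptor). They were chosen by name, as the rows of the count table whose Ensembl identifiers carry these symbols, out of 55471 genes. The choice was made with their levels across the 6 groups already in view. The group levels and the differences between groups below are therefore a description. Adjusted p-values beside them are the output of a fit over all genes, and do not support the pattern for which the genes were picked. Enough reads for a test were found for 7 of the 9 genes, among 15505 genes tested; Mcpt8 and Ms4a2 had too few and are given by their counts.

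MC38 is a colon carcinoma line of C57BL/6 mice, and every tumour grew under the skin of female C57BL/6 mice. The 6 groups, of 5 libraries each, are tumours of B2m knockout cells (B2mKO) under aPD1 and under IgG1, tumours of Jak1 knockout cells (Jak1KO) under aPD1 and under IgG1, and tumours of wild type cells (WT) under aPD1 and under IgG1. The mutation is in the injected tumour cells, and the host's own cells keep both genes. The labels do not say whether a mutant line is 1 clone. The antibody, 100 µg of aPD1 (against the checkpoint receptor PD-1) or of the IgG1 isotype control, was given on days 7, 10 and 13, and tumours were taken on day 14. Total gene counts were between 17629795 and 25944701 per library. B2m, the light chain of MHC class I, averaged 748 ± 160 CPM in B2mKO and 4570 ± 728 CPM in WT tumours under aPD1 (SD, n = 5 each). Jak1, a kinase of interferon receptors, averaged 72.4 ± 6.99 CPM in Jak1KO and 239 ± 6.08 CPM in WT tumours under aPD1 (SD, n = 5 each), so both targeted genes were lower in the tumours named for them. CPM are counts scaled to a common library total, with edgeR's TMM factors. Whether each library comes from its own mouse is not stated in the labels; p-values thus cover only how far these libraries vary, which may be partly technical. WT IgG1 replicate 3 and B2mKO aPD1 replicate 2 were the least like their groups (mean correlation 0.954 and 0.953, against 0.971 to 0.988 for the other libraries), and results that rest on them are given without them too.

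Mast cells are long-lived tissue cells that store proteases in granules bound to heparin. Chymases cut after aromatic residues, tryptases after lysine and arginine, and carboxypeptidase A3 trims the ends that chymases leave. Connective tissue mast cells of the mouse carry Mcpt4, Cma1, Cpa3 and the tryptases. Mcpt8, despite its name, marks basophils in the mouse, and Ctsg is known best from the primary granules of immature neutrophils and monocytes, together with Elane, Prtn3 and Mpo. Ctsg, Mcpt8, Mcpt4 and Cma1 lie in 1 cluster on chromosome 14 that also holds the granzymes of T cells and natural killer (NK) cells. A tumour piece mixes many cell types, so more cells of a type and more RNA per cell cannot be told apart in any value below.

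The promoters of the 4 cluster genes and of Cpa3 are shown because the cluster genes fall on 2 sides of the results. The sequences are those of RefSeq on GRCm38.p6, from 250 bases before to 50 bases after the annotated start, and all are on the minus strand. Capitals mark matches, on either strand, to 4 forms bound by GATA factors or to 2 E-box forms bound by MITF-type factors; no match overlapped another. The GATA forms searched were AGATAA, the form spelled TGATAA, the form spelled AGATAG and the form spelled TGATAG. The E-box forms were CACGTG and the form spelled CATGTG. They are given 5′ to 3′, for Ctsg at chr14:56102525-56102824, Mcpt8 at chr14:56085148-56085447, Mcpt4 at chr14:56062261-56062560, Cma1 at chr14:55944626-55944925 and Cpa3 at chr3:20242132-20242431.
Ctsg: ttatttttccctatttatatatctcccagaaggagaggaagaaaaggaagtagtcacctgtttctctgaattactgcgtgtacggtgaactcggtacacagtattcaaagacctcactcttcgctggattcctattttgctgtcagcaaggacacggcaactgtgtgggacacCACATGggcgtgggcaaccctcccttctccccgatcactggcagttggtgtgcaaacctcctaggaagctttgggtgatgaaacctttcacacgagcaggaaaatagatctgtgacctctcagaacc
Mcpt8: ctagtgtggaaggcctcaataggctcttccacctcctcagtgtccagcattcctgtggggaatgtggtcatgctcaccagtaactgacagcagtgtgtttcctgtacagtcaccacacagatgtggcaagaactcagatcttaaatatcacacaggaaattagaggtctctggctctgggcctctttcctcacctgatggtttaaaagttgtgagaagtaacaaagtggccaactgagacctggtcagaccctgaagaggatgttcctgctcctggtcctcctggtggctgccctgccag
Mcpt4: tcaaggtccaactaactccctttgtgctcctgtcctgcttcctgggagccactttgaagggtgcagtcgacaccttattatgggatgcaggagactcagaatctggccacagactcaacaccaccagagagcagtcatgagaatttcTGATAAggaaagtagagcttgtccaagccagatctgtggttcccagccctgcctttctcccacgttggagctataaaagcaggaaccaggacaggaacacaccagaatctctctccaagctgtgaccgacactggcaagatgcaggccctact
Cma1: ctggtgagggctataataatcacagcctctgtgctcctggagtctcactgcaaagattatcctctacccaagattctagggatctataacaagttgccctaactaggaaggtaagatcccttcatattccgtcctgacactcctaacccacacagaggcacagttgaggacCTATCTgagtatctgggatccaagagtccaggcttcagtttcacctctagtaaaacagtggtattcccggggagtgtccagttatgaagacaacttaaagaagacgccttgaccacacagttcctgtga
Cpa3: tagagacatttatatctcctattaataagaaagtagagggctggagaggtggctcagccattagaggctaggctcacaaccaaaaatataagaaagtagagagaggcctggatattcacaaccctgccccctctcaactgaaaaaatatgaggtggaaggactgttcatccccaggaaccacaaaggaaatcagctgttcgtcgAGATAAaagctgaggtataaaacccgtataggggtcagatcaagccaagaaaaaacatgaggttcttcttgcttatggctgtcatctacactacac
Mcpt4, Cma1 and Cpa3 each held 1 GATA form, 103, 79 and 46 bases before the start. Ctsg and Mcpt8 held no GATA form; Ctsg held 1 E-box form, 77 bases before the start. Ms4a2 held 3 GATA forms, and both Kit promoters in the table held none of the 6 forms. Of all 32851 promoters of this length, 29.8% held at least 1 GATA form and 20.4% at least 1 E-box form, so single matches are common. A match describes letters and does not mark a bound site.

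Ctsg was higher in B2mKO tumours than in both other genotypes, while the 5 mast cell proteases, averaged over both antibodies, were lowest there and highest in Jak1KO tumours. Per kilobase of exon and over all 30 libraries, Tpsb2 had the highest level of the 9, with 1.72 CPM per kb. Cma1 (1.26), Cpa3 (1.16), Ctsg (1.05) and Mcpt4 (0.907 CPM per kb) followed. Kit had 0.517, Tpsab1 0.19, Mcpt8 0.116 and Ms4a2 0.0302 CPM per kb. All 9 are minor transcripts in these tumours: Kit, with the most reads, had 2937 counts in the 30 libraries together, and Ms4a2 had 55.

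**Figure D1:**
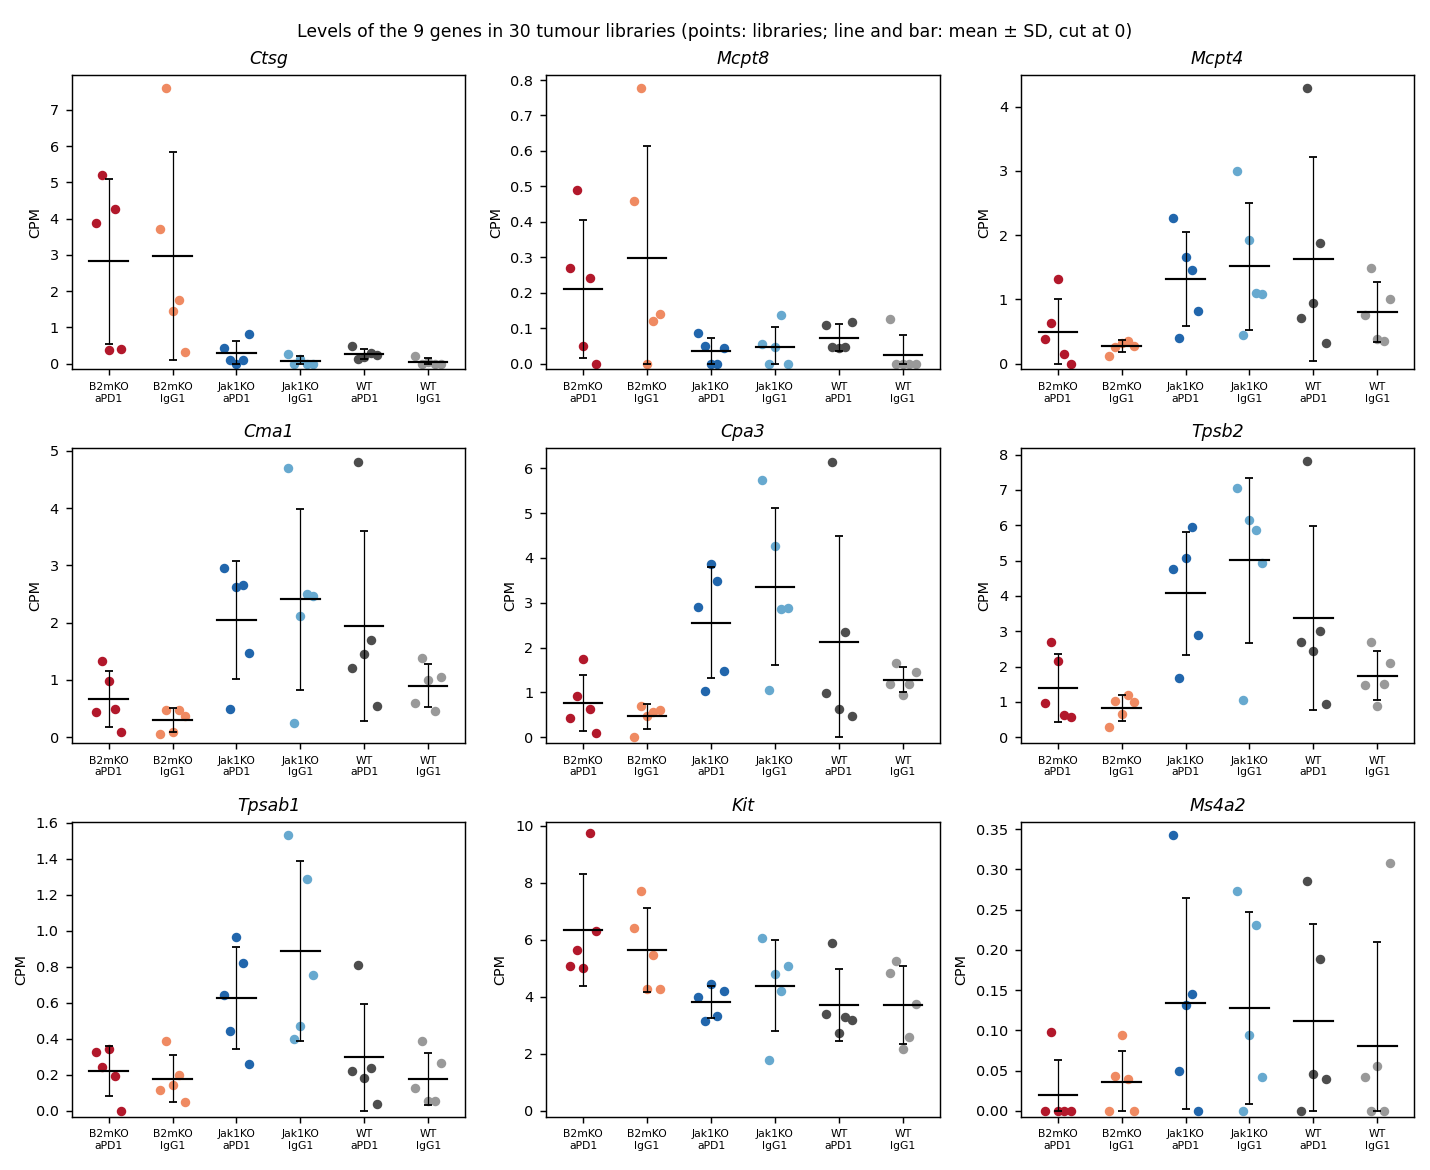
CPM (linear axis) of each of the 9 genes in every library, by group; points are libraries, the horizontal line is the mean and the bar its SD, drawn no lower than 0. Ctsg and Mcpt8 stand highest in B2mKO tumours, and Mcpt4, Cma1, Cpa3, Tpsb2 and Tpsab1 lowest or nearly so in them.

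Ctsg encodes a serine protease with chymotrypsin-like cutting. In B2mKO tumours it had 3.89, 5.19, 0.39, 4.27 and 0.392 CPM under aPD1, and 3.72, 7.59, 1.45, 1.75 and 0.33 CPM under IgG1. In Jak1KO tumours it had 0.428, 0.0989, 0, 0.0968 and 0.824 CPM under aPD1; under IgG1 it was at 0 in 3 libraries and at 0.273 and 0.141 CPM in the other two. In WT tumours it had between 0.143 and 0.496 CPM in all 5 libraries under aPD1, and under IgG1 it was at 0 in 3 libraries and at 0.211 and 0.0555 CPM in the rest. Under IgG1 the B2mKO values lay above those of both other genotypes without overlap, as did those of 5.8% of all genes tested against WT and 14.0% against Jak1KO tumours. Under aPD1, B2mKO replicates 3 and 5 fell within the range of the other genotypes.

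In reads, Ctsg had 606 counts in the 10 B2mKO libraries, against 41 in the 10 Jak1KO and 34 in the 10 WT libraries. Its group means ran in the order B2mKO IgG1 (2.97 ± 2.86 CPM), B2mKO aPD1 (2.83 ± 2.27), Jak1KO aPD1 (0.29 ± 0.34), WT aPD1 (0.268 ± 0.138), Jak1KO IgG1 (0.0829 ± 0.123) and WT IgG1 (0.0532 ± 0.0913; SD, n = 5 each). Neighbouring groups in this order overlapped in their libraries' values. The log2 fold change between B2mKO and WT tumours was 5.53 ± 0.97 under IgG1 (SE; edgeR quasi-likelihood test, adjusted p = 8.1e-05) and 3.40 ± 0.74 under aPD1 (adjusted p = 0.000953). Between B2mKO and Jak1KO tumours it was 5.18 ± 0.92 under IgG1 (adjusted p = 3.9e-05) and 3.20 ± 0.72 under aPD1 (adjusted p = 0.000753). At least 10 reads of Ctsg were found in 7 of the 10 B2mKO libraries, 2 of the 10 Jak1KO and 0 of the 10 WT libraries, so that it passed the filter on low counts mainly through the group where it is high, and its p-values and their stability are no support. Without both libraries that stand apart, the aPD1 differences were 3.05 against WT and 2.86 against Jak1KO tumours (adjusted p = 0.00596 and 0.0053). The IgG1 folds rest on WT and Jak1KO groups with 6 and 8 reads in all, and moved between 4.78 and 7.31 (against WT) and between 4.45 and 6.2 (against Jak1KO) as single libraries were left out.

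Mcpt8, a neighbour of Ctsg, had 5, 10, 1, 5 and 0 reads in B2mKO tumours under aPD1 and 8, 18, 0, 3 and 3 under IgG1. No library of the other genotypes held more than 3 reads of it. The sums were 53 reads in B2mKO, 9 in Jak1KO and 11 in WT tumours, 10 libraries each. The B2mKO libraries with the most Mcpt8 reads, replicate 2 of each antibody group, were also those with the most Ctsg reads. Under IgG1, replicate 2 held 18 of the 32 B2mKO reads, and replicate 1 held all 3 WT reads. Prss34, Cd200r3, Fcer1a and Ms4a2, also on the basophil list, did not share this order. Fcer1a and Ms4a2, both of few reads, averaged lowest in B2mKO tumours and are given below. Prss34, a basophil protease, had 15 reads in the 30 libraries. Cd200r3, a receptor of basophils and mast cells, averaged 0.0584 and 0.0541 CPM in B2mKO tumours (aPD1 and IgG1). It averaged 0.174 and 0.185 CPM in Jak1KO and 0.0759 and 0.0393 CPM in WT tumours. Gata2, a factor on the basophil list that other cells also use, was highest in B2mKO tumours (29.7 and 33.9 CPM). It averaged 16.2 and 16.3 CPM in Jak1KO and 21.3 and 21.8 CPM in WT tumours. Il4, also on that list, averaged 1.40 and 1.56 CPM in B2mKO, 1.77 and 1.63 CPM in Jak1KO and 1.39 and 1.46 CPM in WT tumours.

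The other genes known from primary granules were nearly absent. Elane, Prtn3 and Mpo, the neutrophil proteases and peroxidase stored with cathepsin G, averaged at most 0.157 CPM in any group, and Ms4a3, a marker of granulocyte and monocyte precursors, had no read in any library. Their summed level was 0.131 to 0.539 CPM in B2mKO tumours under aPD1, 0 to 0.175 CPM in Jak1KO tumours under aPD1 and 0.165 to 0.452 CPM in WT tumours under aPD1. Under IgG1 it was 0 to 0.388 CPM in B2mKO, 0.0461 to 0.164 CPM in Jak1KO and 0 to 0.333 CPM in WT tumours. In 7 of the 10 B2mKO libraries Ctsg alone was above the highest of these sums. Of 8 mature neutrophil markers, 3 could be tested; S100a9 was higher in B2mKO than in Jak1KO tumours under IgG1 (0.727 and 0.0939 CPM on average, adjusted p = 0.0105), and none was past the threshold between B2mKO and WT tumours.

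The granzyme genes next to Ctsg followed it. Of the other 11 genes of the cluster listed here, 7 could be tested, and 6 of the 7 were higher in B2mKO than in WT tumours under IgG1, none lower (median log2 fold change 3.91, against -0.001 over all genes). They are Gzmb, the granzyme of cytotoxic lymphocytes, and Gzmc, Gzmd, Gzme, Gzmf and Gzmg, granzymes of activated lymphocytes in the mouse. Under aPD1, 5 of 7 were higher than in WT tumours; Gzmb was not (log2 fold change 0.29 ± 0.57, adjusted p = 0.772). Against Jak1KO tumours 6 were higher and 1 (Mcpt2) lower under IgG1, and 6 were higher and 0 lower under aPD1. Of all genes tested, 9.4% and 9.86% were higher in B2mKO than in WT tumours (IgG1 and aPD1). Against Jak1KO tumours these shares were 14.5% and 15.1%. Gzmf averaged 132 CPM in B2mKO, 9.03 CPM in Jak1KO and 17.7 CPM in WT tumours under aPD1, and 126, 4.76 and 5.86 CPM under IgG1. Gzmd to Gzmg are close copies of each other, so their separate values are uncertain, and the summed level of Gzmc to Gzmg is given too. That sum was 123 to 1540 CPM in B2mKO, 19.2 to 145 CPM in Jak1KO and 88.3 to 151 CPM in WT tumours under aPD1. Under IgG1 it was 177 to 1580 CPM in B2mKO, 22.5 to 64.1 CPM in Jak1KO and 10.3 to 88.6 CPM in WT tumours.

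**Figure D2:**
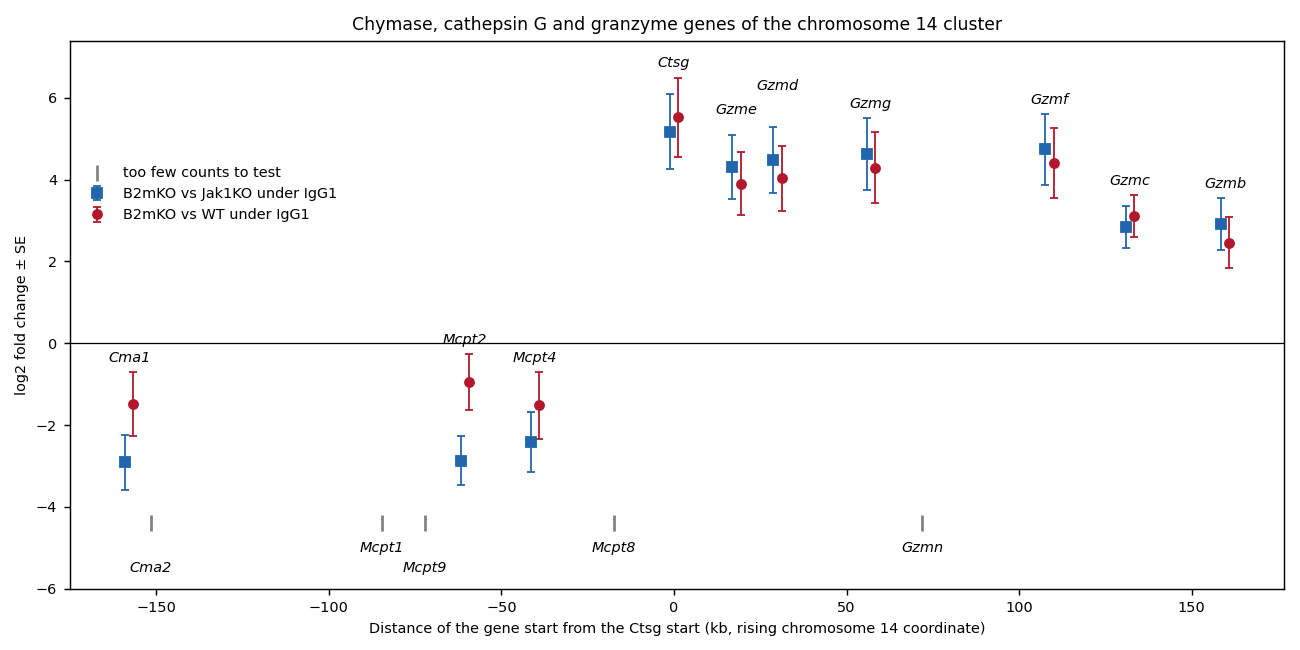
Log2 fold change ± SE under IgG1 of the cluster's genes against the distance of each gene's start from that of Ctsg, for B2mKO over WT (circles) and B2mKO over Jak1KO (squares); short grey bars mark genes with too few reads. Every tested gene from Ctsg towards Gzmb lies above 0 and every one from Mcpt4 towards Cma1 below 0.

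The sign of the difference of B2mKO from WT and from Jak1KO tumours under IgG1 changed within the cluster. Against WT tumours, Mcpt4, Cma1 and Mcpt2 were not past the edgeR threshold under either antibody. Under aPD1 Mcpt2 was above 0 against WT tumours (log2 fold change 0.35 ± 0.61, edgeR adjusted p = 0.741). Mcpt4 starts 40.3 kb on one side of the Ctsg start and Gzme 18.1 kb on the other, with Mcpt8 between Mcpt4 and Ctsg at 17.3 kb. In GRCm38 coordinates of the files, Cma1 is at chr14:55941451-55944675, Mcpt4 at chr14:56059629-56062313, Mcpt8 at chr14:56082166-56085273 and Ctsg at chr14:56099881-56102574, all on the minus strand. None of the 9 genes shared an exon base with another annotated gene. No 50-base stretch of a Ctsg or Mcpt8 transcript occurred in a transcript of another gene. For Mcpt4, 5.5% of such stretches also occur in Cma2 or Mcpt9, and for Cma1 5.4% in a predicted gene; Cma2 had 4 reads in all and Mcpt9 none.

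Within groups, Ctsg followed the granzymes and not the mast cell genes. With group means removed, its log2 CPM over the 30 libraries had Pearson r of 0.88 with Gzmf, 0.88 with Gzmg, 0.87 with Gzmd, 0.86 with Gzme, 0.60 with Gzmc and 0.56 with Gzmb. These are given as a description, with no p. Among 13025 genes with a mean of at least 1 CPM the 3 most like Ctsg were Fcrl6 (r = 0.91), an Fc receptor-like gene of lymphocytes, Cd55 (0.90), a complement regulator, and Dsc2 (0.88), a desmosomal cadherin. Several lymphocyte markers moved with Ctsg between groups as well. Klrg1, a receptor of NK cells, effector T cells and type 2 innate lymphoid cells, averaged 3.98 and 3.61 CPM in B2mKO tumours (aPD1 and IgG1), 0.651 and 0.538 CPM in Jak1KO tumours, and 1.04 and 0.485 CPM in WT tumours. The summed level of 4 NK markers (Ncr1, Klrb1c, Klre1, Eomes) was 3.9 to 18.1 CPM in B2mKO, 4.2 to 6.92 CPM in Jak1KO and 5.69 to 9.28 CPM in WT tumours under aPD1, and 5.61 to 14.4, 4.38 to 7.6 and 4.75 to 5.98 CPM under IgG1. Of these 4, 3 were higher in B2mKO than in WT tumours under IgG1, and 1 (Ncr1) under aPD1. None of 5 T cell markers was past the threshold between B2mKO and WT tumours by edgeR. Of 4 markers of type 2 innate lymphoid cells, 3 could be tested. All 3 (Gata3, Klrg1, Il1rl1) were higher in B2mKO than in WT tumours under IgG1 and 2 under aPD1. Il1rl1 averaged between 506 and 798 CPM in the 6 groups, far above Gata3 (between 1.36 and 5.93 CPM) and Klrg1. The part of these cells in the Ctsg difference was not tested.

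**Figure D3:**
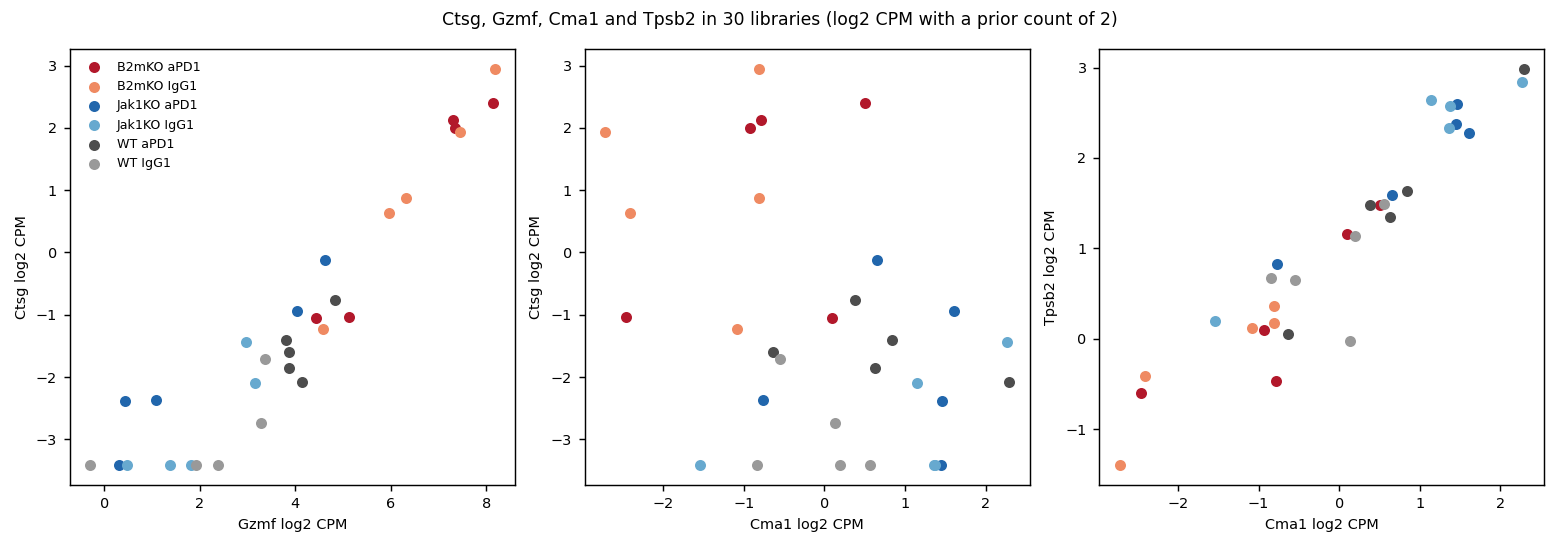
Log2 CPM (prior count 2) in the 30 libraries, coloured by group, of Ctsg against Gzmf, Ctsg against Cma1, and Tpsb2 against Cma1. Ctsg runs with Gzmf and Tpsb2 with Cma1, also within groups (r = 0.88 and 0.91), while Ctsg and Cma1 do not line up (r = 0.13).

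The 5 mast cell proteases Mcpt4, Cma1, Cpa3, Tpsb2 and Tpsab1 moved as 1 block. Their summed level was 0.741 to 6.53 CPM in B2mKO, 4.05 to 14.4 CPM in Jak1KO and 2.32 to 23.9 CPM in WT tumours under aPD1, and 0.572 to 2.85, 3.19 to 22 and 3.28 to 7.63 CPM under IgG1. The B2mKO groups were the lowest of the 6 by the median of this sum. Under IgG1 every B2mKO library lay below every Jak1KO and every WT library in this sum, by a narrow gap. Among single genes tested, 6.35% lay lower without overlap against WT and 15.0% against Jak1KO tumours there.

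Tpsb2, the most abundant of the tryptases here, had 0.972, 2.69, 2.145, 0.631 and 0.567 CPM in B2mKO, 4.75, 1.68, 5.08, 5.95 and 2.91 CPM in Jak1KO and 2.70, 7.81, 2.44, 3.01 and 0.944 CPM in WT tumours under aPD1. Under IgG1 it had 0.286, 1.04, 0.656, 1.19 and 0.991 CPM in B2mKO, 7.05, 1.05, 6.16, 5.86 and 4.93 CPM in Jak1KO and 1.48, 2.71, 0.888, 1.495 and 2.11 CPM in WT tumours. The libraries at 4.75 CPM or more were 7 of the 10 Jak1KO libraries and WT aPD1 replicate 2, which was the highest of all. Its group means ran in the order Jak1KO IgG1 (5.01 ± 2.34 CPM), Jak1KO aPD1 (4.07 ± 1.74), WT aPD1 (3.38 ± 2.60), WT IgG1 (1.73 ± 0.694), B2mKO aPD1 (1.40 ± 0.961) and B2mKO IgG1 (0.832 ± 0.362; SD, n = 5 each), and each neighbouring pair overlapped.

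Tpsab1, the other tryptase, had 0.399 to 1.53 CPM in the 5 Jak1KO libraries under IgG1 and 0.0515 to 0.387 CPM in the 5 WT libraries, which did not overlap; 6.89% of all genes were higher in Jak1KO tumours without overlap there. In B2mKO tumours under IgG1 it had 0.0472 to 0.388 CPM. It was the only one of the 5 whose B2mKO and WT means under IgG1 were alike (0.178 ± 0.13 and 0.177 ± 0.145 CPM; SD, n = 5 each), with 20 and 18 reads in all.

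Cpa3, which cuts snake venom toxins and endothelin in the mouse, had 0.432, 0.93, 1.755, 0.631 and 0.0872 CPM in B2mKO, 2.91, 1.04, 3.85, 3.48 and 1.48 CPM in Jak1KO and 0.992, 6.14, 0.633, 2.35 and 0.472 CPM in WT tumours under aPD1. Under IgG1 it had 0, 0.69, 0.468, 0.556 and 0.613 CPM in B2mKO, 5.74, 1.05, 4.28, 2.86 and 2.88 CPM in Jak1KO and 1.18, 1.66, 0.944, 1.19 and 1.45 CPM in WT tumours. Under IgG1 the B2mKO values lay below all values of both other genotypes, as did those of 6.35% of all genes tested against WT and 15.0% against Jak1KO tumours.

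Cma1, an elastase-like alpha-chymase in the mouse, averaged 0.66 ± 0.487 CPM in B2mKO, 2.04 ± 1.03 CPM in Jak1KO and 1.94 ± 1.66 CPM in WT tumours under aPD1, and 0.296 ± 0.206, 2.40 ± 1.58 and 0.898 ± 0.372 CPM under IgG1 (SD, n = 5 each). Cma1, Cpa3 and Tpsb2 had the same order of the 6 group means. Mcpt4, the mouse chymase nearest in function to the human one, averaged 0.495 ± 0.518 CPM in B2mKO, 1.32 ± 0.73 CPM in Jak1KO and 1.63 ± 1.59 CPM in WT tumours under aPD1. Under IgG1 it averaged 0.268 ± 0.0942, 1.52 ± 0.985 and 0.802 ± 0.471 CPM (SD, n = 5 each), and the B2mKO range of 0.114 to 0.357 CPM lay just below the WT range of 0.361 to 1.49 CPM (6.35% of all genes did not overlap in this direction).

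The comparison of B2mKO with Jak1KO tumours gave the most calls. The 3 genotype comparisons under an antibody share libraries in pairs, so their values are not independent of each other. Under IgG1, 5 of the 7 tested genes were lower and 1 (Ctsg) higher in B2mKO tumours, where 14.0% of all genes tested were lower and 14.5% higher (edgeR quasi-likelihood test, adjusted p under 0.05). The median log2 fold change was -2.41 over the 7, against -0.019 over all genes. Cma1 differed by -2.92 ± 0.67 on the log2 scale (SE; adjusted p = 0.00152), Cpa3 by -2.77 ± 0.64 (adjusted p = 0.00146), Tpsb2 by -2.54 ± 0.52 (adjusted p = 0.00048), Mcpt4 by -2.41 ± 0.73 (adjusted p = 0.0135) and Tpsab1 by -2.22 ± 0.55 (adjusted p = 0.00266). Without Jak1KO IgG1 replicate 1, Mcpt4 missed the threshold (adjusted p = 0.0521).

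Under aPD1, 4 of the 7 were lower (Cpa3, Cma1, Tpsb2 and Tpsab1) and 2 higher (Ctsg and Kit) in B2mKO than in Jak1KO tumours, against 13.6% and 15.1% of all genes. The median was -1.52, against -0.006 over all genes. The differences of the 4 were between -1.74 and -1.52 on the log2 scale, with adjusted p between 0.0201 and 0.0443, close to the threshold. Leaving out B2mKO aPD1 replicate 4 or 5, or Jak1KO aPD1 replicate 4, left Ctsg alone past it. Leaving out Jak1KO aPD1 replicate 1 left 2 genes past it, and leaving out replicate 3 left 3. With the replicate number as a block, 4 genes were past it, since Cma1 (adjusted p = 0.0512) and Kit (adjusted p = 0.0538) missed. The differences of Cpa3, Cma1, Tpsb2 and Tpsab1 were below 0 in every one of these fits.

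Between B2mKO and WT tumours none of the 5 mast cell proteases passed the edgeR test. Mcpt4, Cma1, Cpa3 and Tpsb2 had log2 fold changes below 0 under both antibodies, while Tpsab1 averaged 0.178 CPM in B2mKO and 0.177 CPM in WT tumours under IgG1. Under IgG1, 1 of the 7 (Ctsg) was higher and 0 lower, where 9.4% and 11.7% of all genes were; 2 members, Ctsg and Kit, had an unadjusted p under 0.05, and DESeq2 likewise called 1 gene. Cma1, Mcpt4, Cpa3 and Tpsb2 had log2 fold changes of -1.49, -1.52, -1.40 and -1.01 there, with adjusted p between 0.169 and 0.22. Under aPD1, 2 of the 7 were higher (Ctsg and Kit) and 0 lower, where 9.86% and 10.5% of all genes were; 6 had an unadjusted p under 0.05, and DESeq2 called 4 genes, adding Mcpt4 and Tpsb2 as lower. Their log2 fold changes under aPD1 were -1.71 ± 0.65 for Mcpt4 (adjusted p = 0.0638), -1.55 ± 0.61 for Cma1 (adjusted p = 0.073), -1.46 ± 0.63 for Cpa3 (adjusted p = 0.102) and -1.26 ± 0.51 for Tpsb2 (adjusted p = 0.0786). The number called there was between 1 and 5 as single libraries were left out. It was 4 without B2mKO aPD1 replicate 2 or 3, 5 without WT aPD1 replicate 5, and 1 (Ctsg) without WT aPD1 replicate 1, 3 or 4 or B2mKO aPD1 replicate 4 or 5.

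Jak1KO tumours had more tryptase RNA than WT tumours under IgG1. There 2 of the 7, Tpsab1 (log2 fold change 2.28 ± 0.56, adjusted p = 0.00466) and Tpsb2 (1.53 ± 0.48, adjusted p = 0.0258), were higher and 0 lower, where 7.23% and 11.0% of all genes were; 4 members had an unadjusted p under 0.05, all higher, and DESeq2 called 2. Cma1 (1.42 ± 0.57, adjusted p = 0.0817) and Cpa3 (1.38 ± 0.55, adjusted p = 0.0825) were near the threshold and passed it without Jak1KO IgG1 replicate 2, which made 4 calls. Without WT IgG1 replicate 1 or 3 or Jak1KO IgG1 replicate 1, 3 or 4, Tpsab1 alone was called. Some markers of other cells were also higher in Jak1KO than in WT tumours under IgG1 (edgeR adjusted p between 0.000985 and 0.046). They were 2 of 5 T cell markers (Cd4 and Cd3e) and 1 of 4 NK markers (Ncr1). So were 1 of 3 tested neutrophil markers (Csf3r) and 1 of 5 macrophage markers (Mrc1). S100a8 and S100a9, also of neutrophils, averaged lower in Jak1KO (0.19 and 0.0939 CPM) than in WT tumours (0.422 and 0.469 CPM), neither past the threshold. The part of these cells in the tryptase difference was not tested. Under aPD1, 0 of the 7 were called in either direction by edgeR or DESeq2, where 8.4% of all genes were higher and 12.4% lower; 1 (Tpsab1, log2 fold change 1.10 ± 0.53, adjusted p = 0.146) had an unadjusted p under 0.05. Without WT aPD1 replicate 2 its log2 fold change was 1.92 and it passed (adjusted p = 0.0211).

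**Figure D4:**
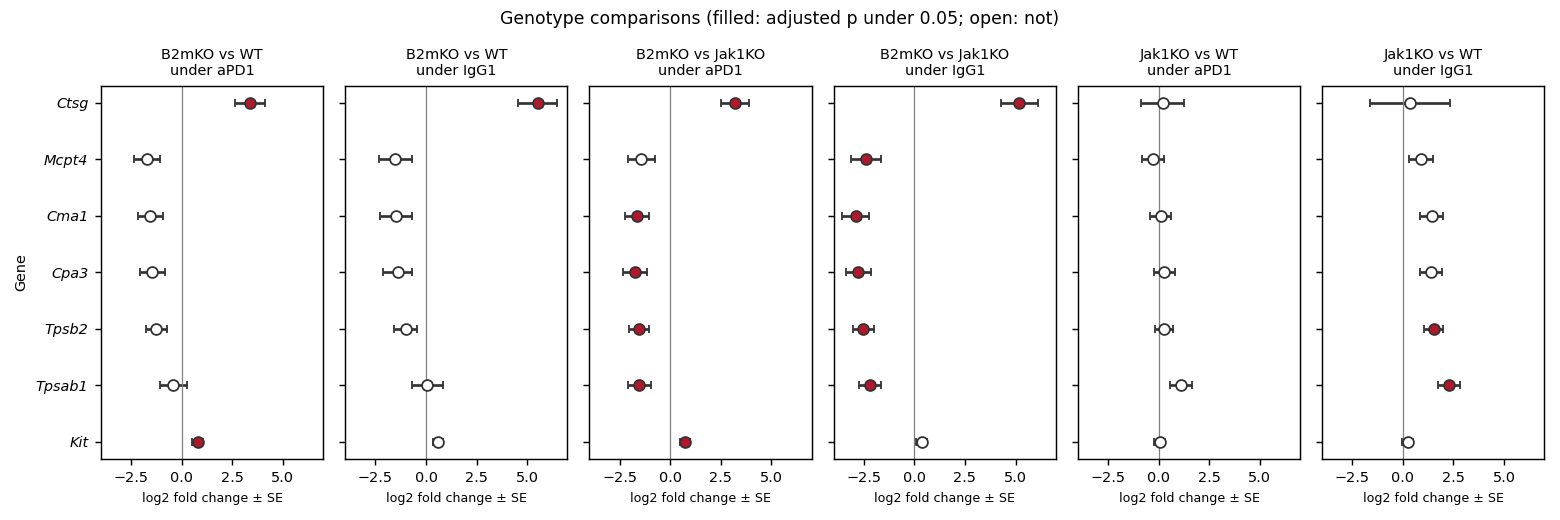
Log2 fold change ± SE of the 7 tested genes (rows) in the 6 genotype comparisons (panels); filled points have an adjusted p under 0.05. Ctsg is at 3.20 or more in all 4 panels with B2mKO tumours on top, and the 5 mast cell proteases are below 0 in both panels that set B2mKO over Jak1KO.

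Kit, the receptor that mast cells need to survive, did not run with the proteases between groups. In B2mKO tumours it had 5.08, 5.63, 5.02, 9.76 and 6.32 CPM under aPD1 and 6.41, 7.72, 4.26, 5.48 and 4.29 CPM under IgG1. It averaged 6.36 ± 1.97 CPM in B2mKO, 3.83 ± 0.561 CPM in Jak1KO and 3.70 ± 1.26 CPM in WT tumours under aPD1, and 5.63 ± 1.47, 4.39 ± 1.60 and 3.71 ± 1.35 CPM under IgG1 (SD, n = 5 each). Under aPD1 the B2mKO values (5.02 to 9.76 CPM) lay above all Jak1KO values (3.16 to 4.47 CPM), as did those of 10.6% of all genes tested. The log2 fold change under aPD1 was 0.78 ± 0.27 against WT (adjusted p = 0.037) and 0.73 ± 0.27 against Jak1KO tumours (adjusted p = 0.0397). Without B2mKO aPD1 replicate 4, which had 9.76 CPM, these were 0.58 (adjusted p = 0.146) and 0.52 (adjusted p = 0.159). The call against WT was also lost without B2mKO aPD1 replicate 5 or WT aPD1 replicate 1, 3, 4 or 5 (adjusted p between 0.0555 and 0.0943), and the call against Jak1KO without B2mKO aPD1 replicate 5 or Jak1KO aPD1 replicate 1, 2 or 4 (adjusted p between 0.0586 and 0.089). Under IgG1 they were 0.59 ± 0.27 (adjusted p = 0.116) and 0.36 ± 0.27 (adjusted p = 0.341). Kit is also made by melanocytes, some innate lymphoid cells and some endothelial cells; within groups it had r = 0.59 with Pecam1, an endothelial gene, and its 3 most like genes were Jam2 (0.68), Ppp1r16b (0.65) and Ablim1 (0.63). Of 4 endothelial markers, 3 were higher in B2mKO than in WT and in Jak1KO tumours under aPD1, and the part of these cells in the Kit difference was not tested. Of the 5 melanocyte markers Tyrp1 had no read, and Dct, Tyr and Mlana averaged at most 0.0865 CPM in any group. The fifth, Pmel, averaged between 1.13 and 1.42 CPM in the 6 groups, and its part was not tested.

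Ms4a2 had 6 reads in the 10 B2mKO libraries, 28 in the 10 Jak1KO and 21 in the 10 WT libraries. It was at 0 in 6, 2 and 3 of them. Its order, lowest in B2mKO tumours, is that of the proteases and not that of Kit. Fcer1a, the alpha chain of the same receptor, averaged 0.0705 and 0.0441 CPM in B2mKO tumours (aPD1 and IgG1), 0.24 and 0.132 CPM in Jak1KO and 0.165 and 0.0971 CPM in WT tumours, again lowest in B2mKO tumours.

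The blocking antibody changed none of the 7 genes past the threshold in any genotype. In WT tumours 0 of 7 were called, where 4.38% of all genes were, and 0 had an unadjusted p under 0.05; DESeq2 also called 0. The log2 fold changes of aPD1 over IgG1 in WT tumours were 2.05 ± 1.52 for Ctsg (28 reads under aPD1 and 6 under IgG1), 1.11 ± 0.58 for Cma1, 1.00 ± 0.60 for Mcpt4 and 0.95 ± 0.49 for Tpsb2, with adjusted p between 0.309 and 0.493. The 3 protease values lean on WT aPD1 replicate 2: without it they were 0.44, 0.24 and 0.37. In that library the 5 mast cell proteases summed to 23.9 CPM, against 2.32 to 9.18 CPM in the other 4, and 6 skeletal muscle genes summed to 290 CPM, against 0.724 to 52.1 CPM. Whether the 2 are linked was not tested, and the deposited header for this library names an alignment under another name. In B2mKO and in Jak1KO tumours 0 of 7 were called by edgeR and by DESeq2, as were 0.0% of all genes in each, with no member at an unadjusted p under 0.05. Among all genes 512 and 172 had an unadjusted p under 0.05 there. The effect of aPD1 in B2mKO or Jak1KO tumours was not shown to differ from that in WT tumours for any of the 7 genes. By edgeR, 0.0967% of all genes were called for B2mKO and 0.0% for Jak1KO tumours. DESeq2 called 121 and 51 of all genes in these comparisons. Both tools called 0 of the 7, and none had an unadjusted p under 0.05.

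Correlations within groups used none of the differences between groups. Over the 30 libraries with group means removed, 13 of the 21 pairs of the 7 tested genes had a correlation past an adjusted p of 0.05 (two-sided permutation test of Pearson's r, 100000 resamples, Benjamini-Hochberg over the 21 pairs). All 10 pairs among Mcpt4, Cma1, Cpa3, Tpsb2 and Tpsab1 were among them, with r between 0.70 and 0.91, Spearman's rho between 0.69 and 0.90 and permutation adjusted p of at most 0.000105. The strongest was Cma1 with Tpsb2, which lie on chromosomes 14 and 17 (r = 0.91, rho = 0.90; raw permutation p = 1e-05, the smallest the resamples can give, adjusted 3e-05). Leaving out the 2 libraries farthest from the median kept r between 0.66 and 0.88 over the 10 pairs. The resamples shuffled libraries across groups, and removing group means leaves fewer free values than libraries, so permutation p-values may be too small. This weighs most on pairs near the threshold.

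Kit was tied to the block more loosely. Its r was 0.50 with Cma1 and with Tpsab1 (permutation adjusted p = 0.00831 for each), 0.46 with Tpsb2 (adjusted 0.0176) and 0.36 to 0.37 with Cpa3 and Mcpt4 (adjusted 0.0688 and 0.0662). By Spearman's rho the pair with Tpsab1 alone passed (rho = 0.49, permutation adjusted p = 0.0123). Without the 2 farthest libraries Kit's r with Tpsb2 was 0.27. Ctsg passed with none of the other 6: its r was between -0.04 and 0.14 with the 5 mast cell proteases, and 0.34 with Kit (permutation adjusted p = 0.0916).

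**Figure D5:**
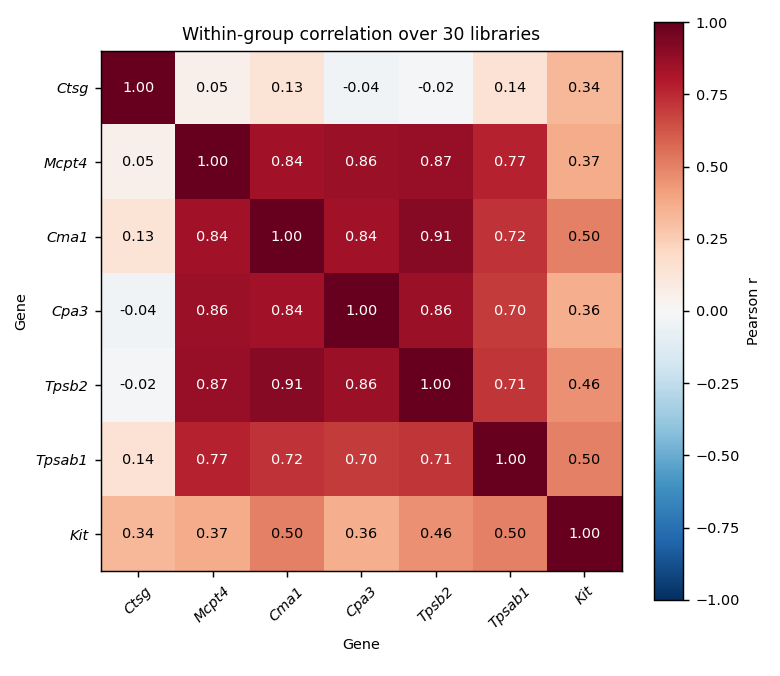
Pearson r of log2 CPM (prior count 2, group means removed) over 30 libraries for each pair of the 7 tested genes, as colour and number. Mcpt4, Cma1, Cpa3, Tpsb2 and Tpsab1 form a block from 0.70 to 0.91, with Ctsg at most at 0.14 against them.

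The gene nearest to each of the 5 mast cell proteases outside the set was Mcpt2, another chymase of the cluster and a mark of mucosal mast cells. Its r was 0.90 with Cma1, 0.86 with Cpa3, 0.85 with Tpsb2, 0.82 with Mcpt4 and 0.70 with Tpsab1, over 30 libraries. The next were Crispld2 (with Cma1, Mcpt4 and Tpsb2), Alg1 (with Cpa3, Tpsb2 and Tpsab1), Slc26a6 (with Cpa3 and Tpsab1), Gja4 (with Mcpt4) and C1qtnf3 (with Cma1), between 0.58 and 0.78. Mcpt2 averaged 2.22 CPM in B2mKO, 4.28 CPM in Jak1KO and 1.74 CPM in WT tumours under aPD1, and 0.889, 6.80 and 1.81 CPM under IgG1. Under IgG1 it was lower in B2mKO than in Jak1KO tumours (log2 fold change -2.87 ± 0.61, adjusted p = 0.000591) and higher in Jak1KO than in WT tumours (1.92 ± 0.56, adjusted p = 0.0162). Mcpt1, the other mucosal chymase, had 111 reads in all and was not tested.

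Apart from Slc18a2, the other granule and mediator genes that could be tested did not share the block's order. Of 10 listed, 8 could be tested: 5 were higher in B2mKO than in WT tumours under IgG1 (Hdc, Hpgds, Alox5, Ndst2, Ltc4s) and none lower. Hdc, which makes histamine, averaged 2.26 CPM in B2mKO, 1.11 CPM in Jak1KO and 1.51 CPM in WT tumours under IgG1. Alox5, the first enzyme of leukotriene synthesis, averaged 3.36, 2.08 and 1.83 CPM in the same order. Both enzymes are also made by other myeloid cells. Slc18a2, which loads amines into granules, was the 1 gene lower in B2mKO than in Jak1KO tumours, under IgG1 (-0.51 ± 0.16, adjusted p = 0.0195) and under aPD1 (-0.62 ± 0.17, adjusted p = 0.00559). It averaged 3.05 and 3.45 CPM in B2mKO (aPD1 and IgG1), 3.86 and 4.25 CPM in WT and 4.70 and 4.93 CPM in Jak1KO tumours. Under each antibody 3 genes of the list were higher in B2mKO than in Jak1KO tumours. Against WT tumours under aPD1, 2 were higher in B2mKO (Alox5, Ltc4s) and 1 lower (Ctsc, the peptidase that activates these proteases and the granzymes); Jak1KO tumours had 3 lower (Hdc, Ctsc, Srgn). In WT tumours Ctsc rose with aPD1 (1.01 ± 0.26, adjusted p = 0.0216), the 1 call of the list among the antibody comparisons.

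Receptors and factors split in the same way. Of 14 listed, 9 could be tested. Gata2 and Mitf, transcription factors of the mast cell lineage that other cells also use, were higher in B2mKO than in Jak1KO tumours under both antibodies (Gata2 by 0.87 ± 0.15 and Mitf by 1.07 ± 0.19 on the log2 scale under aPD1, adjusted p = 8.86e-05 and 8.62e-05). Mrgprb1, a receptor gene largely kept to mast cells in the mouse, ran with the proteases: it was lower in B2mKO than in Jak1KO tumours under IgG1 (-1.94 ± 0.62, adjusted p = 0.0171). Against WT tumours under IgG1, 4 were higher in B2mKO (Il1rl1, Gata2, Mitf, Enpp3) and 1 lower in Jak1KO (Cd63). Under aPD1, 3 were higher in B2mKO (Gata2, Enpp3, Cd63) and 2 lower (Il3ra, Csf2rb), and 4 were lower in Jak1KO than in WT tumours (Fcer1g, Mitf, Il3ra, Csf2rb). With aPD1 in WT tumours Mitf and Csf2rb rose.

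Of 8 ligands and cytokines for these cells, 4 could be tested. Kitl, the ligand of Kit, was lower in both mutants: it averaged 109 CPM in B2mKO, 117 CPM in Jak1KO and 182 CPM in WT tumours under aPD1, and 91.7, 108 and 164 CPM under IgG1. Its log2 fold changes against WT were between -0.84 and -0.60, with adjusted p of at most 6.39e-05. Il18, a cytokine that acts on mast cells and basophils, was past the threshold as higher in B2mKO tumours against WT under aPD1 and against Jak1KO under both antibodies. Il3 and Il9, growth factors for basophils and mast cells, had no read. Of 7 inhibitors of these proteases, 6 could be tested: Serpina3g and Serpinb6b, serpins that block cathepsin- or granzyme-type proteases, rose with aPD1 in WT tumours (1.86 ± 0.50 and 1.87 ± 0.46 on the log2 scale, adjusted p = 0.0283 and 0.0174). Serpina3g was lower in B2mKO than in WT tumours under aPD1 (-2.25 ± 0.51, adjusted p = 0.00208) and than in Jak1KO tumours under IgG1 (-1.49 ± 0.53, adjusted p = 0.0339).

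Tissue around the tumour can bring mast cells into a sample, so marker lists of skin and neighbouring tissue are given beside the block. Krt14, of basal keratinocytes, averaged 0.0586 CPM in B2mKO, 0.436 CPM in Jak1KO and 1.75 CPM in WT tumours under aPD1, and 0.121, 0.372 and 0.994 CPM under IgG1, lower in both mutants than in WT tumours (adjusted p of at most 0.0324). The sum of 6 keratinocyte and hair genes was 2.24 to 6.17 CPM in B2mKO, 3.81 to 5.21 CPM in Jak1KO and 5.19 to 21.5 CPM in WT tumours under aPD1. The 6 fat cell genes summed to 8.76 to 9.81 CPM in B2mKO, 12.2 to 35.3 CPM in Jak1KO and 12.6 to 61.9 CPM in WT tumours under IgG1, where the B2mKO libraries lay below the others. Under aPD1 these sums overlapped, at 6.48 to 24.9 CPM in B2mKO, 7.74 to 11.9 CPM in Jak1KO and 12.3 to 21.3 CPM in WT tumours. Of the 3 fat cell genes that could be tested, 2 were lower in B2mKO than in Jak1KO tumours under IgG1, as the proteases were, and 0 under aPD1. The 6 muscle genes summed to 1.26 to 63.6 CPM in B2mKO, 1.53 to 721 CPM in Jak1KO and 0.724 to 290 CPM in WT tumours under aPD1, and 2 of the 6 were lower in B2mKO than in Jak1KO tumours there. Under IgG1 their sums were 0.89 to 175, 0.752 to 117 and 4.84 to 391 CPM, and none was called. Fibroblast genes went the other way, with 5 of 7 higher in B2mKO than in WT tumours under each antibody and 1 lower under aPD1. Of the 6 eosinophil markers none had enough reads for a test. The part of surrounding tissue in the results was not tested.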

How the data were processed

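Gene counts of 30 MC38 tumour libraries, 5 in each of 6 groups, were used as the authors deposited them. Per the file headers they are raw counts from featureCounts 2.0.0 on the Ensembl release 99 annotation of GRCm38, with no strand option and with reads of several map positions left out. The submitters' processing notes name STAR 2.5.2a, Cufflinks 2.2.1 and edgeR 3.24.3, without their role. One header, of WT aPD1 replicate 2, names another alignment. Rows without a symbol (327, 0.047% of counts) were kept for library sizes. All 6 groups were fitted together with edgeR 4.0.16 (TMM factors, filterByExpr with a minimum count of 10, robust quasi-likelihood test, Benjamini-Hochberg over 15505 genes, threshold 0.05); SE is the log2 fold change over the square root of F. DESeq2 1.42.0, another filter, other scalings, smaller fits, a replicate block and leaving out libraries were tried. Likeness and pairs used log2 CPM with a prior count of 2 and group means removed. Named genes were the members, the genes of the lists and the 3 most like genes of each member. The members and lists were chosen with earlier results of these data known. Same-numbered libraries did not deviate together on the median (correlation -0.004, from -0.587 to 0.464 over 75 pairs), and were not treated as paired. A median near 0 cannot show that none of them shared handling. The edgeR fit with its main settings was tested on simulated data, for a single pair of groups. No such test is reported for the other fits and comparisons. Depth limits precision, and intervals on counts cover counting error only.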

Additional observations from a re-analysis of the deposited data

Results flagged for a closer look

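Of the 9 genes in each of the 6 groups, 8 sets of 5 libraries had 1 library far from the other 4. The measure was its gap to the nearest as a share of the range. For normally distributed values, chance marks about 1 set in 20. That rate does not hold for sets with most libraries at 0, and sets that share libraries are not independent. In WT tumours under aPD1, replicate 2 stood above the rest for Cma1 (4.809 CPM), Tpsab1 (0.8094 CPM) and Kit (5.904 CPM). Kit stood apart in B2mKO aPD1 replicate 4 (9.756 CPM). The others are of few reads: Ctsg (0.2107 CPM) and Mcpt8 (0.1264 CPM) in WT IgG1 replicate 1, and Ms4a2 in B2mKO aPD1 replicate 2 (0.09794 CPM) and WT IgG1 replicate 5 (0.3074 CPM).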

How the results depend on the processing

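Beside the 6 genes called between B2mKO and Jak1KO tumours under aPD1, 1 was called with no filter on low counts. The earlier edgeR estimator, which was added after seeing the data, called 4. In a fit of the compared groups alone, Cma1 and Tpsab1 missed the threshold (edgeR adjusted p = 0.0506 and 0.0559). By DESeq2 Tpsab1 missed it (adjusted p = 0.0572). As single libraries were left out, 1 to 7 were called. Under IgG1 that range was 5 to 6, beside 6. Between B2mKO and WT tumours under IgG1, 2 were called with no filter (Mcpt8 added), 2 in a fit of the compared groups alone (Cpa3 added), and 1 to 1 without single libraries. Under aPD1, beside 2, 1 was called with no filter, 1 in the compared groups alone, 4 by DESeq2, 4 without both libraries least like their groups (B2mKO aPD1 replicate 2 and WT IgG1 replicate 3), and 1 to 5 without single libraries. Between Jak1KO and WT tumours under IgG1, beside 2, 1 was called with no filter, 1 without those 2 libraries and 1 to 4 without single libraries. The fit of the compared groups alone added Cpa3 there (edgeR adjusted p = 0.0371). Under aPD1, beside 0, 0 to 1 were called without single libraries. Antibody effects and their differences between genotypes gave 0 to 0. The 13 correlated pairs were 11 to 15 without single libraries. The replicate block gave 4 calls between B2mKO and Jak1KO tumours under aPD1 and elsewhere the counts of the fit without it. The labels do not say that equal numbers pair libraries. Cpa3 under aPD1 over IgG1 in WT tumours reversed from 0.71 to -0.23 on the log2 scale without WT aPD1 replicate 2 (-0.23 to 0.98 over single libraries); the cause was not tested. Over all genes, the fit of the compared groups alone called 1535, against 3270, between B2mKO and WT tumours under IgG1 and 1818, against 3158, under aPD1. Low counts kept Mcpt8 and Ms4a2 out of the tests, and the Ctsg fold changes under IgG1 rest on 6 reads in WT and 8 in Jak1KO tumours.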
